A study of Sus scrofa with 10 samples.

Results

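Livers of pigs in failure after hepatectomy that had been connected to a bioartificial liver without cells (Empty-BAL, day 3, 2 libraries) were set against livers in failure that had no device (No-BAL, day 2, 2 libraries). These are 4 of the 10 liver RNA libraries of the study, in which the device otherwise held human induced hepatocytes. The pigs of both groups are labelled wild type (WT), and both groups share the hepatectomy. The study describes the empty device as a control for an effect of blood. The table gives FPKM, the fragments on a gene divided by its length and by the size of the library. Every gene that reached 1 FPKM in 2 or more of the 10 libraries entered, 12180 of the 31905 genes listed. The device and the day differ together, so what belongs to the empty device and what to 1 more day of failure cannot be told apart. The labels tie no library to an animal, so the p-values reflect how libraries differed, and that variation may be technical. The error of each gene was estimated over 9 libraries. These include 3 of normal liver and 2 of day 8 with a filled device, which lie outside this comparison. The labels name hepatocytes as the cell type but liver as the tissue, and marker genes of hepatocytes, macrophages, T cells and endothelium were all detected, so the values were read as those of whole liver.

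The liver is built of hepatocytes, which make most plasma proteins, cholesterol, bile and urea, and of sinusoidal cells between them. Kupffer cells are the macrophages resident in the sinusoids, where they clear particles, dying cells and hemoglobin from the blood, and sinusoidal endothelial cells line the vessels and take up soluble waste through scavenger receptors. A bioartificial liver passes the blood of a failing animal over cells kept in a cartridge outside the body, and an empty cartridge exposes the blood to the circuit alone.

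Both Empty-BAL libraries differed more from each other than the No-BAL libraries did. Among genes averaging 10 FPKM or more in a group, 1312 of 4483 (29.3%) lay at least 2-fold apart on the FPKM + 1 scale between the Empty-BAL libraries, against 605 of 4791 (12.6%) between the No-BAL libraries. Empty-BAL library 1 stood further from failure without a device. Its log2 values correlated at 0.82 and 0.78 with those of the No-BAL libraries across genes, and those of library 2 at 0.92 and 0.91. Library 1 also stood further from the mean of the day 0 livers (0.69, against 0.81 for library 2). The same held for the mean of the day 8 livers with a filled device (0.75 against 0.85). Genes are not independent replicates, and these correlations are descriptions. Summed FPKM were 496390 and 439925 in Empty-BAL and 791281 and 526565 in No-BAL. RN18S, an 18S ribosomal RNA gene, stood at 422 and 539 FPKM in Empty-BAL and at 89.6 and 44.8 FPKM in No-BAL, and the mitochondrially encoded protein genes held 15.01% and 12.76% of summed FPKM in Empty-BAL and 21.3% and 18.2% in No-BAL. Across 10335 genes with a known genomic span (start to end), the span correlated with No-BAL library 1 minus library 2 at a Spearman rho of -0.226. The rho was -0.0014 for Empty-BAL library 1 minus library 2, and 0.02 for Empty-BAL minus No-BAL. The part of these differences in the results below was not tested. ALB, the transcript of albumin and the classical hepatocyte product, had 1498 and 4057 FPKM in Empty-BAL and 7337 and 7705 FPKM in No-BAL, a log2 change of -1.61 ± 0.54 (SE, adjusted p = 0.12). Both Empty-BAL libraries lay below both No-BAL libraries, yet the difference did not pass the test.

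With the empty device, marker genes of macrophages, lymphocytes and sinusoidal lining were among those called higher than in failure without a device. Genes of hepatocyte products, among them acute phase proteins, clotting factors and sterol enzymes, were among those called lower. Of the 12180 genes, 325 (2.67%) were called at an adjusted p under 0.05, 137 of them higher in Empty-BAL (1.12%) and 188 lower (1.54%). These shares of all genes apply beside each count of calls in a list below. All 325 calls were at least 2-fold, with a median absolute log2 change of 2.22, and in all of them the libraries of the groups did not overlap. Over all genes tested, the libraries did not overlap in 59% (22.6% higher in Empty-BAL, 36.4% lower), and the median log2 change was -0.14. Every log2 change here is a difference in log2(FPKM + 1), Empty-BAL minus No-BAL. The split of calls followed the scaling: with upper-quartile scaling 217 genes were higher and 84 lower, with median-ratio scaling 187 and 86, and with scaling on genes other than ALB and the mitochondrial ones 160 and 50. These scalings moved the median of all genes up by 0.198, 0.179 and 0.253. Relative to that median, the macrophage list described below stood at 2.54 in the deposited scale and at 2.58, 2.57 and 2.64 under the other scalings, and the sterol list at -1.75, and at -1.72, -1.73 and -1.76. Each scaling divides all genes of a library by the same factor, so these distances could hardly move. They are no test of the lists.

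The count also followed single libraries and the model. Without Empty-BAL library 1, 104 genes were called, of which 83 were among the 325, and without Empty-BAL library 2, 2162 genes. Without No-BAL library 1, 1 gene was called, and without No-BAL library 2, 9 genes. In each of these fits the lone library was assumed to vary like the most variable of the other groups. The calls of a list in such a fit, given below, are to be read against these totals. Without either No-BAL library so few genes passed in the whole table that a list with no calls was nearly fixed in advance. Such a result is not particular to the list. A fit of the 4 libraries alone, with limma, called 0 genes, with 2659 at an unadjusted p under 0.05 (2806 in the fit reported here). An exact permutation test of 2 libraries against 2 cannot go below a two-sided p of 0.333.

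**Figure D1:**
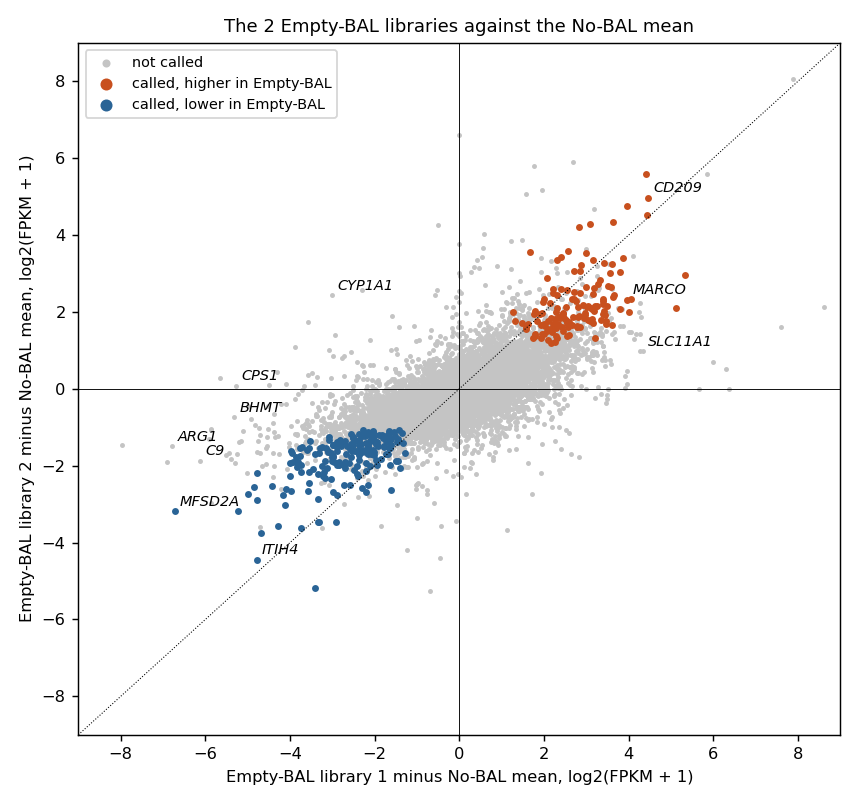
Each of the 12180 genes tested is 1 point; the x axis is Empty-BAL library 1 minus the No-BAL mean and the y axis Empty-BAL library 2 minus the same mean, both in log2(FPKM + 1). Orange points are the 137 genes called higher in Empty-BAL and blue points the 188 called lower; called genes lie near the diagonal, while CPS1, ARG1 and CYP1A1 lie far from it.

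CD209, a lectin receptor of dendritic cells and macrophages, had the largest rise among the genes named by rule. It had 37.4 and 53.9 FPKM in Empty-BAL and 0.588 and 0.946 FPKM in No-BAL, a log2 change of 4.71 ± 0.90 (adjusted p = 0.0406). MZB1, a chaperone of antibody-secreting plasma cells, had 15.4 and 36.7 FPKM in Empty-BAL and 0.429 and 1.59 FPKM in No-BAL (3.69 ± 0.74, adjusted p = 0.0426). For these genes each Empty-BAL library stood far above both No-BAL libraries. The CD209 gene lies on chromosome 2 at 71394414 to 71397711 (Sscrofa11.1), and that of CLEC4G, a lectin of sinusoidal endothelium, lies near it at 71433406 to 71436570. CLEC4G had 36.8 and 97.4 FPKM in Empty-BAL and 7.65 and 2.29 FPKM in No-BAL (3.52 ± 0.59, adjusted p = 0.0274). Reads of such related lectin genes may be divided between them, so their single values are uncertain. Genes of myeloid and lymphoid cells were among the other large rises. LY86, a partner of a Toll-like receptor relative on myeloid and B cells, had 69.1 and 40.8 FPKM in Empty-BAL and 5.29 and 3.12 FPKM in No-BAL. ACP5, a lysosomal phosphatase of macrophages and osteoclasts, had 139.6 and 95.4 FPKM in Empty-BAL and 8.84 and 13.5 FPKM in No-BAL (3.28 ± 0.40, adjusted p = 0.0151). CARD9, an adaptor of antifungal lectin signalling in myeloid cells, had 54.1 and 23.1 FPKM in Empty-BAL and 3.82 and 3.05 FPKM in No-BAL. The Empty-BAL libraries lay apart from the No-BAL libraries in each case, with library 1 the higher of the pair for these 3 genes. CTSW, a protease of cytotoxic lymphocytes, had 14.6 and 7.17 FPKM in Empty-BAL and 0.560 and 0.0812 FPKM in No-BAL. TNFAIP8L2, a negative regulator of immune receptors, had 18.3 and 9.67 FPKM in Empty-BAL and 0.779 and 0.586 FPKM in No-BAL. CLEC3B, which encodes the plasminogen-binding protein tetranectin, had 395 and 282 FPKM in Empty-BAL and 71.0 and 21.2 FPKM in No-BAL, the highest levels among the 12. Of the 12 largest rises, CLEC4G, CCL5, ACP5 and CD163 were called when Empty-BAL library 1 was left out, and none of the 12 when either No-BAL library was.

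**Figure D2:**
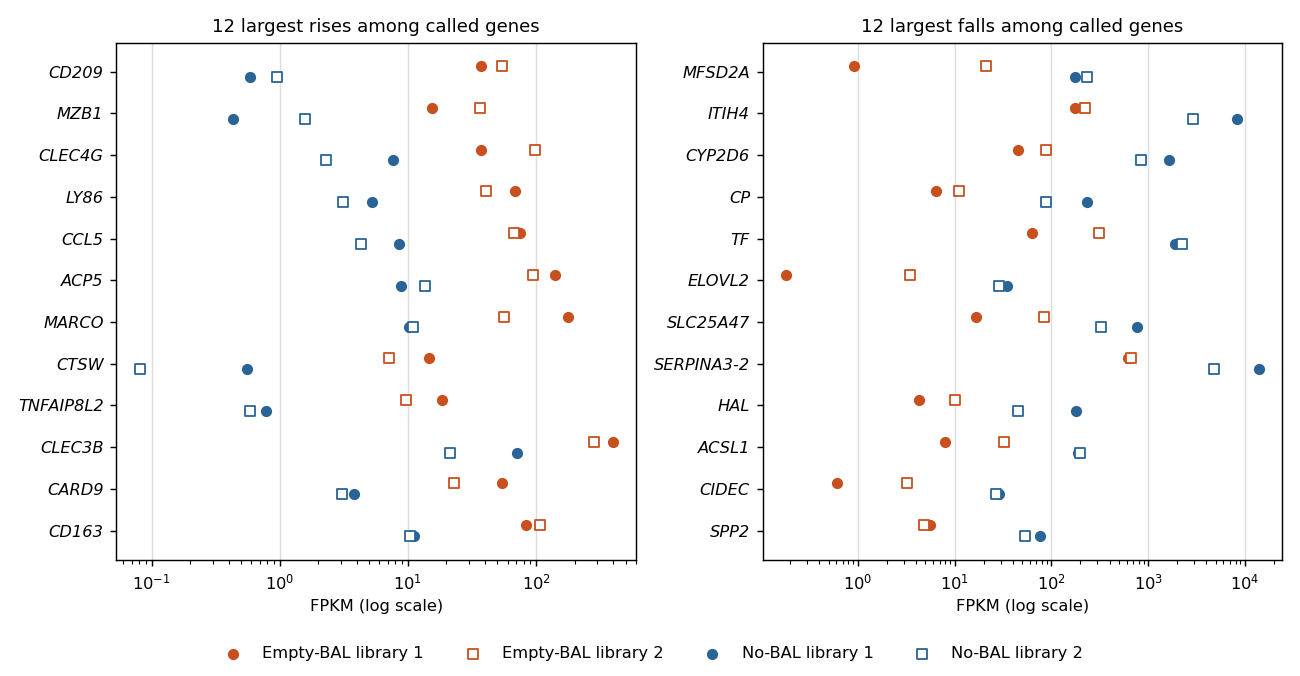
FPKM on a log axis for the 12 largest rises (left) and the 12 largest falls (right) among called genes with a symbol whose libraries did not overlap and whose higher group averaged 10 FPKM or more. Orange marks are Empty-BAL and blue marks No-BAL, with filled circles for library 1 and open squares for library 2; MFSD2A and ELOVL2 show the widest gaps between the Empty-BAL libraries.

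Macrophage markers were the list with the most genes called higher. Of 14 markers tested, 7 rose and 0 fell, with a median log2 change of 2.40 against -0.14 over all genes. For 12 of them both Empty-BAL libraries lay above both No-BAL libraries, against 22.6% of all genes. The median was 2.02 in Empty-BAL library 1 and 2.30 in library 2, each against the No-BAL mean. CD163, the scavenger receptor for complexes of hemoglobin and haptoglobin, had 84.0 and 108 FPKM in Empty-BAL and 11.06 and 10.4 FPKM in No-BAL (3.04 ± 0.32, adjusted p = 0.0104). MARCO, a scavenger receptor of Kupffer cells, had 179 and 56.4 FPKM in Empty-BAL and 10.1 and 11.01 FPKM in No-BAL (3.14 ± 0.63, adjusted p = 0.0426). The No-BAL libraries were nearly equal for both genes, and the Empty-BAL libraries lay well apart for MARCO and close together for CD163. C1QB, which encodes a chain of the complement starter C1q, had 145 and 296 FPKM in Empty-BAL and 29.95 and 23.3 FPKM in No-BAL (2.92 ± 0.43, adjusted p = 0.0214). C1QC, the neighbouring chain, had 161 and 337 FPKM in Empty-BAL and 37.3 and 27.5 FPKM in No-BAL (2.83 ± 0.37, adjusted p = 0.0151). C1q chains were higher in Empty-BAL library 2 than in library 1, the reverse of MARCO. The remaining called members, named after their values were seen, were CSF1R, the receptor for the macrophage growth factor CSF1 (84.6 and 74.1 FPKM in Empty-BAL, 11.6 and 12.7 FPKM in No-BAL), CD68, a lysosomal glycoprotein of macrophages (63.9 and 77.5 FPKM in Empty-BAL, 10.7 and 21.9 FPKM in No-BAL), and C1QA.

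Not every macrophage gene followed. CD14, the coreceptor for bacterial lipopolysaccharide, had 90.8 and 167 FPKM in Empty-BAL and 335 and 99.5 FPKM in No-BAL, and the groups overlapped. LYZ, lysozyme, was listed at 0 in both Empty-BAL libraries and at 0.00361 and 14.6 FPKM in No-BAL. AIF1, a cytoskeletal protein of macrophages, had 173 and 31.7 FPKM in Empty-BAL and 8.88 and 7.11 FPKM in No-BAL and was not called (adjusted p = 0.145), and TIMD4, a Kupffer cell receptor for dying cells, had 8.68 and 11.5 FPKM in Empty-BAL and 1.46 and 1.37 FPKM in No-BAL (adjusted p = 0.0786). VSIG4, MSR1 and FCGR1A were likewise higher in both Empty-BAL libraries without passing the test. The summed level of the 15 markers in the table was 1046 to 1292 FPKM in Empty-BAL and 246 to 469.8 FPKM in No-BAL. In the day 0 livers without failure it was 1120 to 1225 FPKM, near Empty-BAL and above No-BAL. Single markers did not all follow the sum: in those livers C1QB averaged 145 FPKM and CD163 12.6 FPKM. CD5L was not analysed here, and SPIC was under the filter. In whole liver, more cells of a type and more RNA per cell cannot be told apart, nor can fewer cells and less RNA per cell. The calls numbered 5 of 14 without Empty-BAL library 1, 8 without Empty-BAL library 2 and 0 without either No-BAL library.

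**Figure D3:**
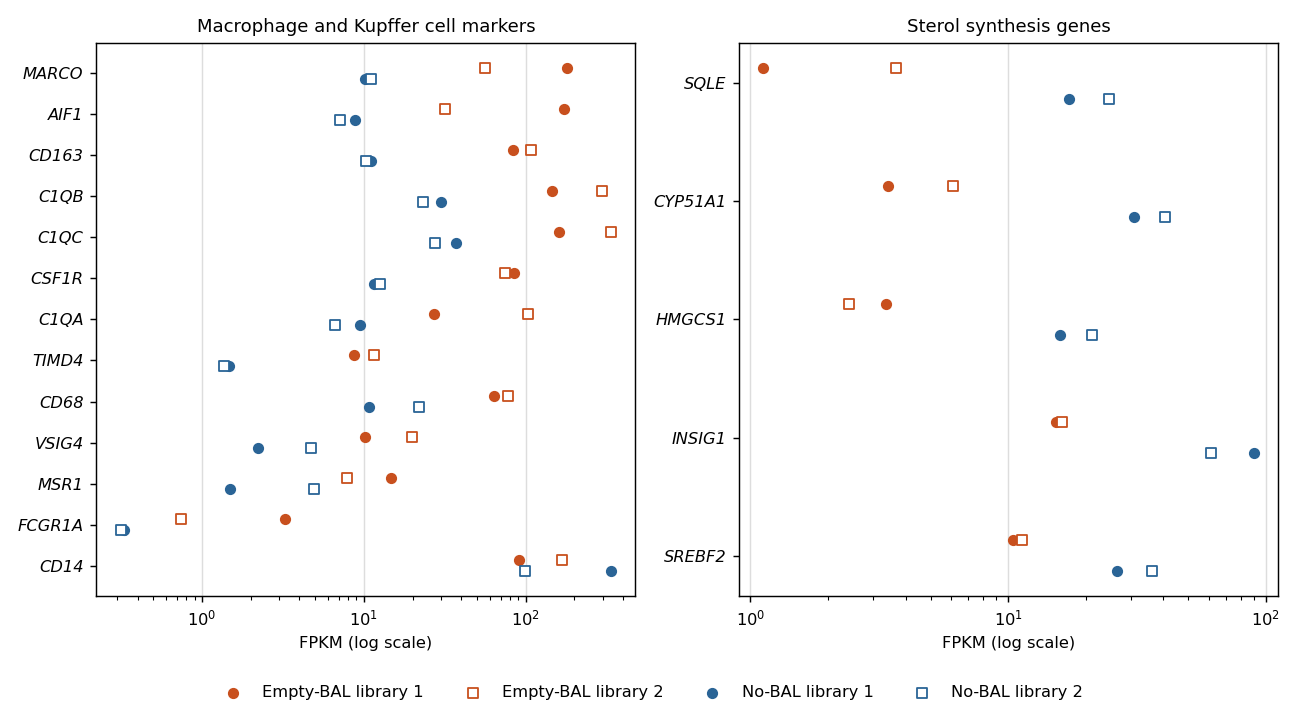
FPKM on a log axis for macrophage and Kupffer cell markers (left, LYZ left out because it was listed at 0 in both Empty-BAL libraries) and for the sterol synthesis genes named in the text (right), ordered by the size of the log2 change. Orange marks are Empty-BAL and blue marks No-BAL; 12 macrophage markers lie higher in both Empty-BAL libraries, and the sterol genes drawn lie lower in both.

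Lymphocyte and antigen presentation genes were higher too, at low levels for the T cell genes. Of 13 T and NK cell markers tested, 2 rose, with a median log2 change of 1.56. All 13 were higher in both Empty-BAL libraries than in both No-BAL libraries, against 22.6% of all genes. CD4, the coreceptor of helper T cells, had 9.55 and 7.49 FPKM in Empty-BAL and 0.557 and 0.820 FPKM in No-BAL (2.49 ± 0.43, adjusted p = 0.0298). CD2, an adhesion receptor of T and NK cells, had 3.88 and 4.18 FPKM in Empty-BAL and 0.127 and 0.0992 FPKM in No-BAL (2.17 ± 0.38, adjusted p = 0.0328). The summed level of this list was 69.4 to 97.4 FPKM in Empty-BAL and 12.3 to 13.3 FPKM in No-BAL. In the day 0 livers without failure it was 44.9 to 48.3 FPKM. Of 6 class II antigen presentation genes tested, 2 rose, and all 6 were higher in both Empty-BAL libraries (median log2 change 1.82). SLA-DQB1, a class II chain of the pig, had 80.4 and 92.5 FPKM in Empty-BAL and 18.2 and 11.4 FPKM in No-BAL (2.50 ± 0.35, adjusted p = 0.0185). SLA-DMB, which helps to load peptides on class II molecules, had 21.3 and 14.7 FPKM in Empty-BAL and 3.27 and 3.40 FPKM in No-BAL (2.11 ± 0.31, adjusted p = 0.0212). Near-identical class II genes can share reads, so the value of a single SLA gene is uncertain. MZB1 was the 1 gene called among 6 B and plasma cell markers. The list's summed level was 78.8 to 106 FPKM in Empty-BAL, 33.0 to 59.1 FPKM in No-BAL and 39.6 to 43.2 FPKM in the day 0 livers. T and NK cell calls numbered 0 without Empty-BAL library 1 and 5 without library 2, class II calls 1 and 4, and both lists had 0 calls without either No-BAL library.

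Of 18 cytokine and chemokine genes tested, 2 rose and 0 fell, with a median log2 change of 1.09 (0.57 without Empty-BAL library 1 and 0.56 without No-BAL library 2). Over all genes 1.12% were called higher. Of the 18, 8 were higher in both Empty-BAL libraries than in both No-BAL libraries and 3 lower, against 22.6% and 36.4% of all genes. CCL5, a chemokine for T cells and monocytes, had 74.7 and 67.2 FPKM in Empty-BAL and 8.46 and 4.28 FPKM in No-BAL (3.35 ± 0.46, adjusted p = 0.0184). CXCL9, a chemokine induced by interferon gamma, had 8.98 and 3.65 FPKM in Empty-BAL and was listed at 0 and at 0.110 FPKM in No-BAL (2.69 ± 0.48, adjusted p = 0.0342). The groups were far apart for both. Among 18 interferon response genes only GBP1, a guanylate-binding protein induced by interferon gamma, was called, with 16.4 and 8.18 FPKM in Empty-BAL and 1.10 and 2.00 FPKM in No-BAL (2.33 ± 0.46, adjusted p = 0.041). The median of that list was -0.42, and 14 of its 18 genes had a negative log2 change. Single libraries decided that median, which was -0.04 without Empty-BAL library 2 and -0.06 without No-BAL library 2, and -0.72 without Empty-BAL library 1 and -0.80 without No-BAL library 1. IRF1, a transcription factor of the same response and the 1 gene called among 13 of NF-kB feedback and IL6 signalling, had 36.2 and 21.7 FPKM in Empty-BAL and 6.04 and 8.38 FPKM in No-BAL (1.84 ± 0.38, adjusted p = 0.0474). When Empty-BAL library 1 was left out, CCL5 was called and CXCL9, GBP1 and IRF1 were not, and without either No-BAL library these lists had 0 calls.

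Of 14 endothelial genes tested, 4 rose and 0 fell, with a median log2 change of 0.41 (0.09 without No-BAL library 1). Over all genes 1.12% were called higher. Both Empty-BAL libraries lay above both No-BAL libraries for 4 of the 14, near the 22.6% of all genes. They lay below for 1 of the 14, against 36.4% of all genes. STAB1, a scavenger receptor of sinusoidal endothelium and macrophages, had 45.8 and 35.3 FPKM in Empty-BAL and 9.78 and 3.79 FPKM in No-BAL (2.52 ± 0.45, adjusted p = 0.0342). FCN2, a ficolin that starts the lectin pathway of complement, had 111 and 192 FPKM in Empty-BAL and 19.4 and 33.3 FPKM in No-BAL (2.47 ± 0.39, adjusted p = 0.0233). OIT3, a secreted liver protein, had 4.31 and 5.04 FPKM in Empty-BAL and 0.698 and 0.454 FPKM in No-BAL (1.85 ± 0.34, adjusted p = 0.0351). CLEC4G, given above, was the fourth. PECAM1, a junction protein of endothelium in general, had 73.3 and 20.1 FPKM in Empty-BAL and 26.5 and 56.6 FPKM in No-BAL, and VWF, the platelet-binding von Willebrand factor, 16.6 and 4.92 FPKM in Empty-BAL and 5.64 and 1.87 FPKM in No-BAL; both, named after their values were seen, overlapped between groups. The list's median was 1.13 in Empty-BAL library 1 and -0.27 in library 2. The summed level was 393 to 397 FPKM in Empty-BAL and 127 to 176 FPKM in No-BAL. In the day 0 livers without failure it was 535 to 582 FPKM. Endothelial calls numbered 2 without Empty-BAL library 1, 6 without library 2 and 0 without either No-BAL library.

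Among bile duct and progenitor markers 3 of 9 were called and among stellate cell markers 1 of 14, against 2.67% of all genes. No neutrophil marker was called. Both Empty-BAL libraries lay above both No-BAL libraries for 5 of the 9 and 7 of the 14, against 22.6% of all genes. They lay below for 1 of the 9 and 1 of the 14. SPP1, osteopontin, made by bile duct cells and macrophages, had 527 and 183 FPKM in Empty-BAL and 52.0 and 43.8 FPKM in No-BAL (2.68 ± 0.44, adjusted p = 0.0261). KRT7, a keratin of bile duct cells, had 80.0 and 105 FPKM in Empty-BAL and 24.5 and 11.2 FPKM in No-BAL (2.39 ± 0.48, adjusted p = 0.0426), whereas CLDN4, a tight junction protein of the same list, fell to 23.8 and 49.3 FPKM in Empty-BAL, against 189 and 116 FPKM in No-BAL (-2.08 ± 0.40, adjusted p = 0.0408). These 3 were the called members among 9 cholangiocyte and progenitor markers tested, and they did not move one way. VIM, vimentin, the intermediate filament of mesenchymal and immune cells and the 1 gene called among 14 stellate cell and fibroblast markers, had 640.4 and 286 FPKM in Empty-BAL and 106 and 113 FPKM in No-BAL (1.96 ± 0.36, adjusted p = 0.036). COL1A1, the main fibrillar collagen chain, had 145 and 166 FPKM in Empty-BAL and 331 and 184 FPKM in No-BAL (adjusted p = 0.318), and TIMP1, an inhibitor of matrix proteases, 2706 and 351 FPKM in Empty-BAL and 421 and 121 FPKM in No-BAL (adjusted p = 0.177). No gene of 20 for extracellular matrix and none of 7 neutrophil markers was called. S100A12, a neutrophil calcium-binding protein, had 443 and 63.0 FPKM in Empty-BAL and 171 and 20.4 FPKM in No-BAL, and S100A8 175 and 27.6 FPKM in Empty-BAL and 60.5 and 3.58 FPKM in No-BAL. For both, library 1 of each group was far above library 2 of the same group, and the groups overlapped. The summed neutrophil level was 122 to 636 FPKM in Empty-BAL and 50.9 to 259.9 FPKM in No-BAL. Hemoglobin and platelet genes gave no call: HBB had 151 and 4.49 FPKM in Empty-BAL and 181 and 25.97 FPKM in No-BAL, and PPBP, a platelet chemokine, 17.4 and 2.51 FPKM in Empty-BAL and 0.306 and 0.586 FPKM in No-BAL (adjusted p = 0.0841). SPP1 and VIM were called when Empty-BAL library 1 was left out, KRT7 and CLDN4 were not, and without either No-BAL library 0 genes of these lists were called.

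HMOX1 and CD163, which handle heme and hemoglobin, rose. HMOX1, heme oxygenase 1, which breaks heme down to biliverdin, iron and carbon monoxide, had 879.9 and 272 FPKM in Empty-BAL and 67.6 and 93.4 FPKM in No-BAL (2.61 ± 0.48, adjusted p = 0.0358). Both Empty-BAL libraries were above both No-BAL libraries, and library 1 was the highest of the 4. CD163 was the 1 gene called among 12 of iron and heme handling, whose median was -0.51, and -0.08 without Empty-BAL library 1. HMOX1 was the 1 called among 10 of oxidative stress and metallothioneins, whose median of -0.25 became 0.08 when scaled on genes other than ALB and the mitochondrial ones, and 0.32 without Empty-BAL library 1. HMOX1 was not called when either No-BAL library or Empty-BAL library 1 was left out.

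Some genes of plasma proteins that hepatocytes secrete were called lower with the empty device. Of 11 acute phase genes tested, 3 fell and 0 rose, and the median log2 change was -3.36, the lowest of the lists with at least 5 genes tested (-1.94 without Empty-BAL library 1). Over all genes 1.54% were called lower. Of the 11, 8 were lower in both Empty-BAL libraries than in both No-BAL libraries and 1 higher, against 36.4% and 22.6% of all genes. ITIH4, a major acute phase protein of the pig on chromosome 13 (34928455 to 34948250), had 177 and 225 FPKM in Empty-BAL and 8356 and 2906 FPKM in No-BAL (-4.62 ± 0.54, adjusted p = 0.0121). CP, ceruloplasmin, the copper-carrying ferroxidase, had 6.40 and 11.06 FPKM in Empty-BAL and 235 and 87.3 FPKM in No-BAL (-3.93 ± 0.51, adjusted p = 0.0151). SERPINA3-2, a protease inhibitor related to antichymotrypsin, had 616 and 661 FPKM in Empty-BAL and 13919 and 4822 FPKM in No-BAL (-3.68 ± 0.60, adjusted p = 0.0243). The Empty-BAL libraries were closer together than the No-BAL libraries for these 3 genes, and No-BAL library 1 was well above No-BAL library 2. All 3 were called without Empty-BAL library 1 and without No-BAL library 2, and ITIH4 was the 1 gene of the whole table called without No-BAL library 1. TF, transferrin, the iron carrier of plasma, had 63.2 and 309 FPKM in Empty-BAL and 1902 and 2225 FPKM in No-BAL (-3.87 ± 0.57, adjusted p = 0.0215), and was the 1 gene called among 17 secreted plasma proteins (median -1.42, and -0.54 without No-BAL library 1). SPP2, a secreted phosphoprotein of liver and bone, had 5.57 and 4.85 FPKM in Empty-BAL and 77.3 and 53.4 FPKM in No-BAL (-3.40 ± 0.31, adjusted p = 0.0104). For TF the Empty-BAL libraries were themselves far apart, and for SPP2 they were nearly equal. Both were called without Empty-BAL library 1, neither without No-BAL library 1, and SPP2 but not TF without No-BAL library 2. The summed level of 8 hepatocyte markers was 3714 to 6959 FPKM in Empty-BAL and 14896 to 15881 FPKM in No-BAL, and its part in these falls was not tested.

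Of 18 coagulation and fibrinolysis genes tested, 5 fell and 0 rose, with a median log2 change of -1.67 (-1.10 without No-BAL library 1). Over all genes 1.54% were called lower. Of the 18, 12 were lower in both Empty-BAL libraries than in both No-BAL libraries and 1 higher, against 36.4% and 22.6% of all genes. F13B, the carrier subunit of the fibrin-linking factor XIII, had 0.594 and 2.97 FPKM in Empty-BAL and 21.9 and 26.6 FPKM in No-BAL (-3.32 ± 0.40, adjusted p = 0.0133). PLG, plasminogen, the precursor of the fibrin-dissolving enzyme, had 36.2 and 119.9 FPKM in Empty-BAL and 489.9 and 317 FPKM in No-BAL (-2.56 ± 0.49, adjusted p = 0.041). SERPINF2, the inhibitor of plasmin, had 40.9 and 139.5 FPKM in Empty-BAL and 432 and 293 FPKM in No-BAL. F2, prothrombin, had 74.5 and 57.7 FPKM in Empty-BAL and 279 and 164 FPKM in No-BAL (-1.69 ± 0.36, adjusted p = 0.049). Library 1 was the lower Empty-BAL library for F13B, PLG and SERPINF2 but not for F2. F9, coagulation factor IX, was the fifth called, named after its values were seen, with 11.8 and 25.2 FPKM in Empty-BAL and 62.1 and 52.0 FPKM in No-BAL. Among 15 complement genes, C4A, a component of the classical and lectin pathways, was the 1 called, with 38.3 and 41.7 FPKM in Empty-BAL and 313 and 136 FPKM in No-BAL (-2.34 ± 0.44, adjusted p = 0.0397). The complement median was -0.91, and -0.05 without No-BAL library 1. Of the 15, 4 were lower in both Empty-BAL libraries than in both No-BAL libraries and 2 higher. Over all genes those shares were 36.4% and 22.6%. Coagulation calls numbered 1 of 18 in each of the other scalings tried. They numbered 1 without Empty-BAL library 1, 11 lower and 1 higher without library 2, and 0 without either No-BAL library.

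Genes of cholesterol synthesis were lower throughout the list. Of 17 genes of sterol synthesis and uptake, 6 fell and 0 rose, with a median log2 change of -1.90. All 17 were lower in both Empty-BAL libraries than in both No-BAL libraries, against 36.4% of all genes. HMGCS1, which makes the HMG-CoA that starts the pathway, had 3.35 and 2.42 FPKM in Empty-BAL and 15.8 and 21.2 FPKM in No-BAL (-2.32 ± 0.34, adjusted p = 0.0198). SQLE, squalene epoxidase, a rate-controlling step further on, had 1.12 and 3.66 FPKM in Empty-BAL and 17.2 and 24.6 FPKM in No-BAL (-2.78 ± 0.45, adjusted p = 0.0239). CYP51A1, the lanosterol demethylase, had 3.43 and 6.12 FPKM in Empty-BAL and 30.8 and 40.6 FPKM in No-BAL (-2.69 ± 0.35, adjusted p = 0.0151). INSIG1, which holds the sterol-sensing complex in the endoplasmic reticulum, had 15.3 and 16.2 FPKM in Empty-BAL and 89.8 and 61.4 FPKM in No-BAL (-2.17 ± 0.32, adjusted p = 0.0215). The Empty-BAL libraries were close to each other for most of this list, with medians of -2.001 in library 1 and -1.42 in library 2. SREBF2, the transcription factor that drives the pathway, was also called and is named after its values were seen, with 10.4 and 11.3 FPKM in Empty-BAL and 26.4 and 36.2 FPKM in No-BAL. The count was 3 without Empty-BAL library 1, 10 without library 2, 0 without either No-BAL library, and 2 when scaled on genes other than ALB and the mitochondrial ones.

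Several genes of fatty acid handling were called lower, 3 of them among the 12 largest falls. MFSD2A, a transporter of lysophosphatidylcholine with long polyunsaturated chains, on chromosome 6 (95738961 to 95753245), had 0.916 and 21.3 FPKM in Empty-BAL and 177 and 231 FPKM in No-BAL (-4.96 ± 0.80, adjusted p = 0.0239), the largest fall among the genes named by rule. ELOVL2, an elongase of such fatty acids, had 0.183 and 3.44 FPKM in Empty-BAL and 34.5 and 29.1 FPKM in No-BAL (-3.84 ± 0.52, adjusted p = 0.0174). ACSL1, which activates fatty acids to their coenzyme A esters, had 7.98 and 32.7 FPKM in Empty-BAL and 189 and 197 FPKM in No-BAL (-3.48 ± 0.47, adjusted p = 0.0164). In all 3 both Empty-BAL libraries were far below the No-BAL pair, and library 1 was the lower. Of 17 lipid droplet and lipid synthesis genes, 3 fell and 0 rose (median -0.63, and -1.10 without No-BAL library 2), and all 3 encode proteins of the droplet surface. Over all genes 1.54% were called lower. Of the 17, 10 were lower in both Empty-BAL libraries than in both No-BAL libraries and 1 higher, against 36.4% and 22.6% of all genes. CIDEC had 0.612 and 3.24 FPKM in Empty-BAL and 28.9 and 26.6 FPKM in No-BAL (-3.46 ± 0.50, adjusted p = 0.0198). PLIN2 had 53.8 and 185 FPKM in Empty-BAL and 724 and 751 FPKM in No-BAL, and CIDEB 6.21 and 34.2 FPKM in Empty-BAL and 105 and 118 FPKM in No-BAL. PLIN2 averaged 23.0 FPKM in the day 0 livers without failure, so its Empty-BAL values lay between those and No-BAL. Of 19 genes of fatty acid oxidation and ketogenesis, 2 fell and 0 rose (median -1.06, and -1.72 without Empty-BAL library 2). Of the 19, 15 were lower in both Empty-BAL libraries than in both No-BAL libraries and 0 higher, against the same shares of all genes. ACADM, the medium-chain acyl-CoA dehydrogenase, had 23.1 and 57.9 FPKM in Empty-BAL and 172 and 159.7 FPKM in No-BAL (-2.15 ± 0.37, adjusted p = 0.0321), and ACADVL, its very-long-chain counterpart, 54.4 and 87.5 FPKM in Empty-BAL and 234 and 179 FPKM in No-BAL (-1.55 ± 0.33, adjusted p = 0.049). Droplet calls numbered 2 without Empty-BAL library 1 and 5 without library 2, oxidation calls 1 and 15, and both lists had 0 calls without either No-BAL library. When scaled on genes other than ALB and the mitochondrial ones, 1 droplet gene and 0 oxidation genes were called.

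Of 11 transport genes tested, 3 fell and 0 rose, and the list's median was -3.31 in Empty-BAL library 1 and -0.54 in library 2, each against the No-BAL mean. Over all genes 1.54% were called lower. Of the 11, 6 were lower in both Empty-BAL libraries than in both No-BAL libraries and 0 higher, against 36.4% and 22.6% of all genes. SLC22A7, an organic anion carrier of the sinusoidal membrane, had 6.85 and 20.9 FPKM in Empty-BAL and 158 and 111 FPKM in No-BAL (-3.35 ± 0.44, adjusted p = 0.0151). ABCG5 and ABCG8, which together pump sterols into bile, had 0.379 and 5.18 FPKM (ABCG5) and 0.838 and 8.56 FPKM (ABCG8) in Empty-BAL, and 15.04 and 14.9 FPKM (ABCG5) and 27.8 and 28.5 FPKM (ABCG8) in No-BAL. The No-BAL libraries were nearly equal for this pair, and the Empty-BAL libraries were far apart, both still below. HSD3B7, an early enzyme of bile acid synthesis, had 24.3 and 62.8 FPKM in Empty-BAL and 193 and 139 FPKM in No-BAL and was the 1 gene called among 9 of that pathway. Transport calls numbered 2 without Empty-BAL library 1, 8 without library 2, 0 without either No-BAL library and 1 in each of the other scalings tried.

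In nitrogen and carbohydrate metabolism at most 2 genes of a list were called. Of 10 urea cycle and glutamine genes, 2 fell: SLC25A13, the mitochondrial carrier that exports aspartate for the cycle, had 3.39 and 12.9 FPKM in Empty-BAL and 32.6 and 56.3 FPKM in No-BAL (-2.49 ± 0.48, adjusted p = 0.041), and GLS2, the liver glutaminase, 3.43 and 8.60 FPKM in Empty-BAL and 30.1 and 21.0 FPKM in No-BAL (-2.002 ± 0.41, adjusted p = 0.0436). Neither was called without Empty-BAL library 1 or under the other scalings. Of 19 amino acid catabolism genes, 2 fell. The median of that list was -0.97, and -0.36 without Empty-BAL library 1, and 3 of the 19 had a positive log2 change. HAL, which starts histidine breakdown, had 4.25 and 10.1 FPKM in Empty-BAL and 179.7 and 45.0 FPKM in No-BAL (-3.58 ± 0.72, adjusted p = 0.0426). AGXT, which detoxifies glyoxylate, had 34.5 and 72.9 FPKM in Empty-BAL and 389.6 and 194 FPKM in No-BAL. SLC25A47, a liver-restricted mitochondrial carrier, had 16.5 and 84.7 FPKM in Empty-BAL and 775 and 326 FPKM in No-BAL (-3.70 ± 0.74, adjusted p = 0.0426). All of these were lower in both Empty-BAL libraries, with library 1 the lower. GYS2, the liver glycogen synthase, had 4.09 and 2.24 FPKM in Empty-BAL and 11.2 and 13.8 FPKM in No-BAL. It was the 1 gene called among 11 of gluconeogenesis and glycogen, whose median was -1.73 (-1.20 without Empty-BAL library 1). Of those 11, 9 were lower in both Empty-BAL libraries than in both No-BAL libraries, against 36.4% of all genes. That held for 4 of 10 urea cycle and glutamine genes and for 7 of 19 amino acid catabolism genes. CYP2D6, a drug-metabolising cytochrome P450, had 44.8 and 87.3 FPKM in Empty-BAL and 1657 and 851 FPKM in No-BAL (-4.22 ± 0.46, adjusted p = 0.0104), and CYP2E1, which oxidises ethanol and paracetamol, 63.2 and 181 FPKM in Empty-BAL and 596 and 378 FPKM in No-BAL (-2.14 ± 0.46, adjusted p = 0.0495). Cytochrome P450 genes have close relatives that can share reads, so their single values are uncertain. CYP2E1 was the 1 gene called among the 14 tested of the drug metabolism list, to which CYP2D6 did not belong. The median of that list was -0.90, and -0.255 without Empty-BAL library 1, and 3 of the 14 had a positive log2 change. PROX1, a transcription factor of hepatocytes and lymphatic vessels, had 1.01 and 1.15 FPKM in Empty-BAL and 10.4 and 5.60 FPKM in No-BAL (-2.06 ± 0.37, adjusted p = 0.0345) and was the 1 gene called among 15 hepatocyte transcription factors, whose median was -1.49 (-0.89 without Empty-BAL library 1). GYS2 and CYP2D6 were called without Empty-BAL library 1, the others of this paragraph were not, and CYP2D6 alone of them was called without No-BAL library 2.

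Genes of growth and of most stress responses gave few calls. No gene of 21 for DNA replication, of 21 for mitosis or of 17 for ribosome biogenesis was called, with medians of -0.55, -0.76 and -1.04. TK1, the thymidine kinase of S phase, had 93.1 and 84.3 FPKM in Empty-BAL and 141 and 65.4 FPKM in No-BAL, where the day 0 livers averaged 3.12 FPKM. UBE2C, which drives exit from mitosis, had 79.3 and 66.4 FPKM in Empty-BAL and 163 and 98.4 FPKM in No-BAL, and BIRC5 29.6 and 50.7 FPKM in Empty-BAL and 80.6 and 42.7 FPKM in No-BAL. TK1 and BIRC5 overlapped between the groups. Of the 21 replication genes 20 had a negative log2 change and 13 were lower in both Empty-BAL libraries than in both No-BAL libraries, and of the 21 mitosis genes 20 and 16, with 36.4% of all genes lower in that way. The replication median was -0.34 without No-BAL library 2 and -0.21 when scaled on genes other than ALB and the mitochondrial ones, and the mitosis median -0.45 with that scaling. NPM1, a nucleolar protein of ribosome assembly, had 112 and 133 FPKM in Empty-BAL and 250.0 and 310.5 FPKM in No-BAL (-1.19 ± 0.29, adjusted p = 0.062), and all 17 ribosome biogenesis genes were lower in both Empty-BAL libraries. MCM7, part of the replicative helicase, had 24.3 and 52.7 FPKM in Empty-BAL and 103 and 96.1 FPKM in No-BAL (adjusted p = 0.0618). BAG3, a co-chaperone of HSP70, fell to 18.9 and 40.2 FPKM in Empty-BAL, against 270.3 and 123 FPKM in No-BAL (-2.68 ± 0.47, adjusted p = 0.0325). HSPD1, the mitochondrial chaperonin, fell to 33.3 and 77.9 FPKM in Empty-BAL, against 161 and 195 FPKM in No-BAL (-1.78 ± 0.36, adjusted p = 0.0447). These were the 2 genes called among 8 of heat shock, and neither was called without Empty-BAL library 1. No gene was called for the unfolded protein response, p53, immediate early genes, nuclear-encoded respiration or mitochondrially encoded proteins. Yet 14 of 17 genes of nuclear-encoded respiration and 10 of 12 mitochondrially encoded ones were lower in both Empty-BAL libraries than in both No-BAL libraries. None of either list was higher in that way, and the medians were -1.17 and -1.58. Over all genes 36.4% were lower in that way. ATP6 had 21568 and 11491 FPKM in Empty-BAL and 41369.6 and 21726 FPKM in No-BAL, and CYC1, cytochrome c1, 181 and 223 FPKM in Empty-BAL and 729.8 and 454 FPKM in No-BAL (adjusted p = 0.0538). ZFP36, an early-response RNA-binding protein, had 205 and 149 FPKM in Empty-BAL and 215 and 142 FPKM in No-BAL, and the groups overlapped.

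The Empty-BAL libraries differed widely for some genes. As a description with no test, 16 genes were taken by the size of the gap between the Empty-BAL libraries where the No-BAL libraries lay within 2-fold on the FPKM + 1 scale. In 8 of them library 1 was the lower. CPS1, the entry enzyme of the urea cycle, had 1.60 FPKM in Empty-BAL library 1 and 105 FPKM in library 2, against 74.0 and 134 FPKM in No-BAL. ARG1, arginase, the last enzyme of the cycle, had 16.4 and 680.0 FPKM in Empty-BAL, against 1372 and 2692 FPKM in No-BAL. Library 2 was thus within the No-BAL range for CPS1 and below it for ARG1, while library 1 was far below for both. BHMT, a homocysteine methyltransferase, had 12.1 and 311 FPKM in Empty-BAL and 532 and 512 FPKM in No-BAL. C9, the pore-forming complement component, had 0.968 and 36.4 FPKM in Empty-BAL and 124 and 149 FPKM in No-BAL, and SLC51A, a bile acid exporter of the basolateral membrane, 0.0930 and 24.4 FPKM in Empty-BAL and 37.5 and 30.6 FPKM in No-BAL. PPIF, the mitochondrial cyclophilin, had 15.2 and 281 FPKM in Empty-BAL and 557 and 426 FPKM in No-BAL. For these 4 the order was the same, with library 1 lowest, library 2 next and the No-BAL pair highest. CYP1A1, a cytochrome P450 induced through the aryl hydrocarbon receptor, had 0.582 and 67.8 FPKM in Empty-BAL and 14.2 and 9.59 FPKM in No-BAL, so that library 1 lay below and library 2 above the No-BAL pair. AKR1C2, an aldo-keto reductase, did the same, with 2.81 and 110.1 FPKM in Empty-BAL and 18.4 and 17.1 FPKM in No-BAL.

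The other 8 genes were higher in library 1. SLC11A1, a metal transporter of macrophage phagosomes, had 189 and 17.6 FPKM in Empty-BAL and 8.70 and 8.27 FPKM in No-BAL. SOX18, a transcription factor of endothelium, had 90.7 and 6.49 FPKM in Empty-BAL and 21.0 and 16.0 FPKM in No-BAL, and LYL1, a factor of blood and endothelial cells, 28.7 and 1.37 FPKM in Empty-BAL and 1.95 and 1.35 FPKM in No-BAL. In library 2 SOX18 lay below the No-BAL pair and LYL1 within its range, and in library 1 both lay above. TRPV2, a cation channel found in macrophages, had 35.0 and 2.17 FPKM in Empty-BAL and 1.11 and 1.55 FPKM in No-BAL. H1-4, a linker histone, had 23.7 and 0.654 FPKM in Empty-BAL and 0.453 and 0.863 FPKM in No-BAL, and LRMDA 61.9 and 4.63 FPKM in Empty-BAL and 3.45 and 7.63 FPKM in No-BAL. U4 and U1, spliceosomal small nuclear RNAs, were at 81.6 and 49.3 FPKM in Empty-BAL library 1 and listed at 0 in Empty-BAL library 2 and both No-BAL libraries. Over all genes tested, both Empty-BAL libraries lay on one side of the No-BAL mean in 9411 (77.3%). Among lists with at least 5 genes tested, the medians of the Empty-BAL libraries had opposite signs for endothelial genes, for glycolysis and hypoxia (0.08 and -0.39) and for oxidative stress (-0.73 and 0.32). The widest gaps with one sign were those of bile acid and organic anion transport, given above, of the urea cycle (-2.79 and -0.33) and of acute phase genes (-4.21 and -1.94).

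**Figure D4:**
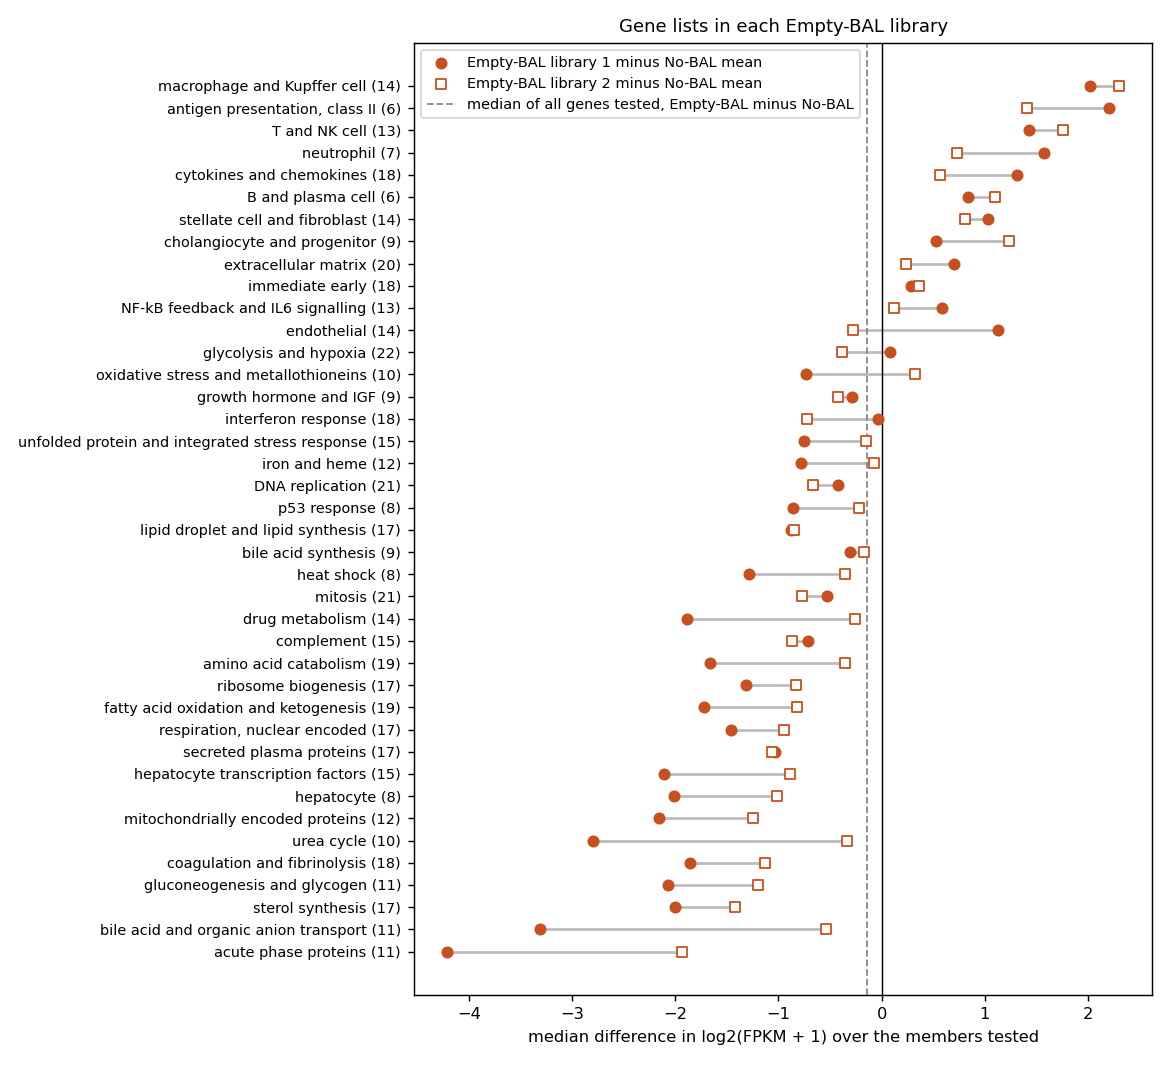
Median difference in log2(FPKM + 1) over the tested members of each gene list with at least 5 of them, for Empty-BAL library 1 (filled circles) and library 2 (open squares), each minus the No-BAL mean; the number of genes is in parentheses and the dashed line is the median of all genes tested (-0.14). Macrophage, class II and T and NK cell genes lie to the right in both libraries, acute phase and sterol genes to the left in both, and the gap is wide for transport and urea cycle genes.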

How the data were processed

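Per the labels, total RNA of whole pig livers was extracted with Trizol, made into TruSeq libraries and read from both ends. The authors deposited 1 table of FPKM. Tools named in the submitters' processing notes are HISAT2, Cufflinks and HTSeq, and the builds are Sscrofa11.1 (pig) and mm10 (mouse), with no role for either, and the mouse build played no part here. Whole fragments could not be recovered from the low values (the most common ratio between the Empty-BAL libraries held for 9 of 2708 genes), so the depth is unknown and no counting intervals are given. FPKM are relative, so abundant genes shift all others. The sources used here do not give strandedness, so overlapping genes are uncertain.

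Values were tested as log2(FPKM + 1), which understates changes of low genes, with limma 3.58.1 in R 4.3.3. The fit held 9 libraries (Empty-BAL, No-BAL, 3 of normal liver and 2 of day 8 with a filled device), with a weight per group, since the spread differed by group, and a mean-variance trend. The single day 4 library was left out of the fit and counted in the filter. The test was two-sided with Benjamini-Hochberg adjustment over 12180 genes. Symbols came from the table for 16497 genes and from a RefSeq table for 851. Coordinates are from RefSeq for Sscrofa11.1, matched by symbol.

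The gene lists, the members and the rule for named genes were chosen with earlier results of these data known. The rule took the 12 largest rises and falls among called genes with a symbol, libraries that do not overlap and 10 FPKM or more on average in the higher group; up to 4 called members of each list, or the 2 most abundant where none was called; the 8 genes with the largest gap each way between the Empty-BAL libraries; and ALB. Some genes are not reported here. Other names are said to be chosen after their values were seen, or complete a list. The other settings tried were equal weights, the 4 libraries alone, other pseudocounts, filters and scalings, a replicate block, and leaving out each library. Python 3.11.15 with pandas 2.3.3, numpy 2.4.6, scipy 1.17.1 and matplotlib 3.10.9 made the tables and plots. The code was tested on simulated data.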

Additional observations from a re-analysis of the deposited data

How the results depend on the processing

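The number of genes called, 325 (137 higher in Empty-BAL, 188 lower), depended on the model. Equal weights over all 10 libraries called 4146 (1535 higher, 2611 lower), and the 4 libraries alone 0 (2659 at an unadjusted p under 0.05). A pseudocount of 0.1 called 210 (91 and 119) and one of 5 called 432 (191 and 241). No filter left 55 (25 and 30), and a filter of 5 FPKM in 2 libraries 141 (60 and 81), of which all 141 were among the 325. Upper-quartile scaling gave 301 (217 and 84), median-ratio scaling 273 (187 and 86), and scaling without mitochondrial genes and ALB 210 (160 and 50). Leaving out 1 library gave 1 to 2162 calls (0 to 820 higher, 1 to 1342 lower). With the replicate block over the 4 libraries, 0 genes were called (3086 at an unadjusted p under 0.05). Libraries of the same number deviated together at a correlation of 0.137 across genes. With 2 pairs, this value cannot tell whether libraries of the same number share more than the number. Genes at least 2-fold apart made up 21.8% (mean of at least 1 FPKM) and 27.7% (scaling without mitochondrial genes and ALB) in Empty-BAL, and 10.2%, 17.1% and, with upper-quartile scaling, 11.4% in No-BAL. None of the 67 named genes that were called changed sign under any setting, which non-overlapping libraries largely fix. Among the 27 not called, 9 did. With upper-quartile scaling, median-ratio scaling and scaling without mitochondrial genes and ALB, log2 changes were 0.158, 0.133 and 0.236 for TK1, 0.0940, 0.0688 and 0.172 for COX4I1, 0.269, 0.244 and 0.347 for ZFP36, and 0.0938, 0.0729 and 0.160 for ITGA2B. IGFBP2 had 0.0090 with upper-quartile scaling and 0.0866 without mitochondrial genes and ALB. Leaving out 1 library gave ranges of -0.66 to 0.43 for TK1, -0.78 to 0.41 for COX4I1, -1.03 to 0.0699 for CCNG1, -0.30 to 0.29 for ZFP36, -0.0261 to 2.97 for S100A12, -3.67 to 1.12 for HBB and -0.95 to 1.20 for HBM. HBM had -0.79 with a pseudocount of 0.1. The causes were not tested. With 2 libraries a group and unknown depth, small changes of low genes were not detectable.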

Other observations

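Called genes outside the lists, chosen after their values were seen, held further genes of white blood cells. TYROBP, a signalling adaptor of myeloid and NK cells, had 322 and 149.5 FPKM in Empty-BAL and 32.1 and 27.8 FPKM in No-BAL (log2 change 2.84 ± 0.36, adjusted p = 0.0151). FCER1G, the common Fc receptor gamma chain, had 175 and 42.8 FPKM in Empty-BAL and 8.64 and 11.5 FPKM in No-BAL. CYBA, a subunit of the phagocyte oxidase, had 262 and 114 FPKM in Empty-BAL and 27.7 and 21.0 FPKM in No-BAL. IRF8, a transcription factor of myeloid and B cells, had 78.7 and 40.2 FPKM in Empty-BAL and 15.4 and 12.1 FPKM in No-BAL. In each of these, Empty-BAL library 1 was the highest of the 4 libraries. SIGLEC1, a sialic acid receptor of resident macrophages, had 2.93 and 3.01 FPKM in Empty-BAL and 0.245 and 0.415 FPKM in No-BAL, and PLTP, the phospholipid transfer protein of plasma, 64.0 and 74.5 FPKM in Empty-BAL and 11.6 and 5.40 FPKM in No-BAL, with the Empty-BAL libraries close together for both.

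Among falls outside the lists were further genes of sterol synthesis and movement. MSMO1, a sterol demethylation enzyme, had 3.60 and 4.71 FPKM in Empty-BAL and 30.2 and 42.3 FPKM in No-BAL (-2.84 ± 0.30, adjusted p = 0.0104). EBP, a sterol isomerase, had 37.4 and 46.3 FPKM in Empty-BAL and 164 and 104 FPKM in No-BAL, and STARD4, a sterol carrier, 0.371 and 1.39 FPKM in Empty-BAL and 8.05 and 7.78 FPKM in No-BAL. All 3 were lower in both Empty-BAL libraries. The SLC25 genes, the mitochondrial carrier family, were taken up after their values were seen, so their share of calls is a description only. Of 41 tested, 7 fell and 0 rose (17.1% called, against 2.67% of all genes), with a median log2 change of -0.82. SLC25A13 and SLC25A47, given above, are among the 7. SLC25A4, the heart and muscle form of the ADP and ATP carrier, had 20.7 and 59.7 FPKM in Empty-BAL and 192 and 179 FPKM in No-BAL, and SLC25A1, the citrate carrier, 30.6 and 55.2 FPKM in Empty-BAL and 139 and 214 FPKM in No-BAL. No list or family was tested as a set.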
